A study of Mus musculus with 4 samples.

Results

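The genes described here encode subunits of the AMPA and NMDA types of ionotropic glutamate receptor. They are the 4 AMPA receptor subunits Gria1, Gria2, Gria3 and Gria4 and the 6 NMDA receptor subunits Grin1, Grin2a, Grin2b, Grin2c, Grin2d and Grin3a. They were chosen by gene symbol and make up 10 of the 21933 genes in the matrices. All 10 were found, each with at least 1 unique molecular identifier (UMI, the tag that marks 1 captured RNA molecule) in every library.

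Nuclei of the right cerebral cortex were profiled by single-nucleus RNA sequencing in adult male mice of the C57Bl/6J background at postnatal day 100. The control group held 2 wild-type littermates (CrT+/y, replicates control 1 and control 2). The CrT-KO group held 2 males (CrT-/y, replicates CrT-KO 1 and CrT-KO 2) that carry a germline deletion of part of Slc6a8, the X-linked gene of the creatine transporter, in every cell. No animal was treated, and each library came from 1 animal. The groups were compared to learn which genes change in which cells when creatine uptake is lost.

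The 4 matrices held between 8282 and 9295 nuclei and between 51507483 and 65240843 UMIs. The receptor subunits took 0.931% and 0.927% of all UMIs in the control libraries and 0.934% and 0.976% in the CrT-KO libraries. Slc6a8 itself stood at 6.59 and 5.56 CPM (UMIs per 1000000 UMIs) in control excitatory neurons and at 1.52 and 1.5 in CrT-KO excitatory neurons, so the deposited matrices carried the labelled genotypes. Clusters were built without the 10 subunits and named from marker genes. They gave 7 major populations, with 17082 excitatory neurons, 8064 inhibitory neurons, 4274 oligodendrocytes, 660 oligodendrocyte precursor cells (OPCs), 2231 microglia, 487 astrocytes and 240 endothelial cells and pericytes. Neurons were split further into 8 excitatory and 5 inhibitory subclasses, while 5819 excitatory and 3756 inhibitory nuclei kept no subclass name. Of the inhibitory subclasses, 1078 nuclei had markers of striatal medium spiny neurons (MSN-like), although the tissue was labelled cortex. They came from subclusters of 612 and 466 nuclei, both with Drd2, Adora2a and Penk among their 10 most enriched genes. Subclusters of 544, 567, 142 and 189 inhibitory nuclei that scored highest as MSN-like kept no subclass name. The MSN-like values below therefore cover the Drd2-rich nuclei only. A group of 247 excitatory nuclei was named Slc17a6-like from a list of subcortical markers (Slc17a6, Meis1, Lef1, Tcf7l2 and Prkcd). Of that list 3 were detected in them, but only Lef1 was among their 10 most enriched genes. Subclusters of 377 and 26 inhibitory nuclei with Slc17a6 among their 10 most enriched genes kept no subclass name. In the clustering of all nuclei, an excitatory cluster of 959 nuclei also had Slc17a6 among its 10 most enriched genes. The subclasses that its nuclei later entered were not traced, so the name Slc17a6-like need not cover all nuclei rich in Slc17a6. The libraries shared 96 cell barcodes, a number that counts barcodes found in more than 1 library.

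AMPA receptors are tetramers of GluA subunits that carry most of the fast current at excitatory synapses. The GluA2 subunit, the product of Gria2, makes the channel nearly impermeable to calcium once its messenger RNA has been edited, so receptors without it pass calcium. NMDA receptors need the obligatory GluN1 subunit, the product of Grin1, together with GluN2 or GluN3 subunits that set the kinetics, the block by magnesium and the site in the tissue. GluN2B is prominent early in forebrain development and GluN2A rises later, GluN2C and GluN2D are known from restricted cell types, and GluN3A lowers calcium permeability.

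Positions are given on the mouse build GRCm38. Gria1 spans 57011387 to 57330244 of chromosome 11 on the plus strand, Gria2 spans 80681450 to 80802835 of chromosome 3 on the minus strand, Gria3 spans 41400854 to 41678601 of the X chromosome on the plus strand, and Gria4 spans 4417896 to 4796234 of chromosome 9 on the minus strand. The obligatory subunit gene Grin1 spans 25291181 to 25319187 of chromosome 2 on the minus strand. Grin2a spans 9567898 to 9995560 of chromosome 16, Grin2b spans 135713233 to 136173511 of chromosome 6, Grin2c spans 115249169 to 115267243 of chromosome 11 and Grin2d spans 45831883 to 45878378 of chromosome 7, all on the minus strand. Grin3a spans 49661611 to 49845744 of chromosome 4 on the minus strand. Reads from introns and exons were counted together over these gene bodies, which run from 18.1 kb for Grin2c to 460.3 kb for Grin2b. Grin3a contains Ppp3r2 on its own strand and Grin2d overlaps Kdelr1 on the opposite strand, so the counts of these 2 members are uncertain to the extent that reads were shared.

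Levels are given as CPM, the UMIs of the gene per 1000000 UMIs of all genes in the same population and library. Because long genes collect more intronic reads, levels of different genes were set side by side after division by the length of the gene body in kb. That counts grow in proportion to length was not tested. On that scale, in CPM per kb, excitatory neurons held 16.8 ± 1.13 (SD, n = 4 libraries) of Grin1, 12.1 ± 0.561 of Gria2, 5.62 ± 0.395 of Grin2a, 4.39 ± 0.0902 of Gria3, 3.89 ± 0.0657 of Grin2b, 3.76 ± 0.508 of Gria1 and 3.39 ± 0.140 of Gria4. Grin3a at 0.217 ± 0.0168, Grin2d at 0.121 ± 0.0161 and Grin2c at 0.0133 ± 0.0054 were far lower on the same scale. Inhibitory neurons held 14.6 ± 0.985 of Grin1, 10.4 ± 0.265 of Gria2, 6.98 ± 0.324 of Gria1 and 4.15 ± 0.153 of Gria4 per kb. In both neuron classes Grin1 and Gria2 thus stood above the other members per kb. Without the division the order changed. In CPM over all neurons Grin1 stood at 455 and Gria2 at 1421. Grin2a stood at 2178, Grin2b at 1743, Gria1 at 1451, Gria4 at 1353 and Gria3 at 1163.

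**Figure D1:**
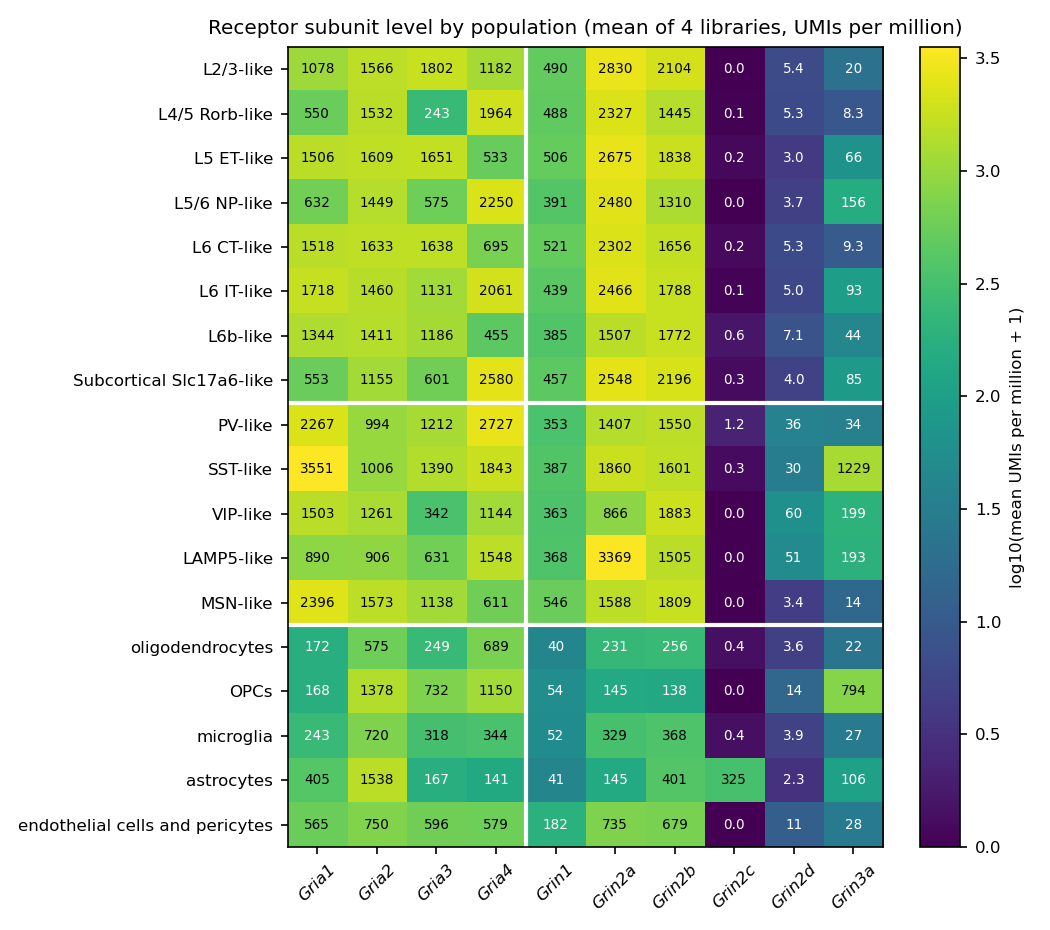
Mean level of each subunit gene (columns) in each of the 18 cell populations (lines), in CPM averaged over 4 libraries, with colour on a log10 scale. White lines part excitatory subclasses, inhibitory subclasses and non-neuronal populations, and AMPA from NMDA subunits. Gria1 and Grin3a peak in SST-like nuclei, Grin2a in LAMP5-like nuclei and Grin2c in astrocytes.

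Inhibitory and excitatory neurons differed in all 10 members at an adjusted p under 0.1 (edgeR quasi-likelihood test with Benjamini-Hochberg adjustment over all genes, library as a block). The inhibitory class here includes the MSN-like nuclei and those without a subclass name. Of the members, 5 were higher and 5 lower in inhibitory neurons, while 62.3% of the 13668 genes tested differed in this comparison (31.9% higher and 30.3% lower), so a difference as such was common. Gria1 stood at 2244 and 2252 CPM in control and at 2079 and 2324 in CrT-KO inhibitory neurons, against 1048, 1216, 1115 and 1420 in excitatory neurons of the same libraries. All 4 inhibitory values lay above all 4 excitatory values, and the log2 difference was 0.74 (SE 0.05). Grin2a, the gene of GluN2A, ran the other way with 1405, 1540, 1427 and 1548 in inhibitory and 2322, 2403, 2250 and 2638 in excitatory neurons, a log2 difference of -0.86 (SE 0.04).

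The remaining members separated the neuron classes by less or at lower levels. Gria2, Gria3, Grin1 and Grin2b were lower in inhibitory neurons by log2 differences of -0.39, -0.46, -0.36 and -0.33, each with an SE between 0.03 and 0.04. Gria4 was higher by 0.13 (SE 0.04), a call that was lost without library CrT-KO 2, where the log2 difference of Gria4 was 0.09. Grin3a was higher by 2.74 (SE 0.05), with 315, 270, 305 and 308 CPM in inhibitory neurons and 43.9, 41.0, 37.7 and 37.4 in excitatory neurons. Grin2d, a subunit known from interneurons, was higher by 2.11 (SE 0.08), at 27.3 ± 1.28 against 5.63 ± 0.748 CPM. Grin2c was higher by 2.32 (SE 0.35) but rested on 68 UMIs in inhibitory and 36 in excitatory neurons over all libraries, of which PV-like nuclei held 10 and SST-like nuclei 2.

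Among neuronal subclasses, Gria1, Gria3 and Gria4 varied more than Gria2. The highest subclass mean exceeded the lowest by 6.46-fold for Gria1, 7.43-fold for Gria3 and 5.99-fold for Gria4, but by 1.80-fold for Gria2, on the scale of CPM over 13 subclasses. When the 18 populations were ranked by the mean level of Gria2, none of the 17 pairs of neighbours had library values that stood apart. The same count of separated neighbours was 5 for Gria1, 6 for Gria3 and 5 for Gria4. Within libraries, 4 of the Gria2 neighbour pairs were ordered alike in all 4 libraries (OPCs over VIP-like, Slc17a6-like over SST-like, PV-like over LAMP5-like nuclei, and microglia over oligodendrocytes), and the others were not.

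SST-like nuclei, cortical interneurons marked by somatostatin, held the highest Gria1 level of all populations. Their values were 3850 and 3760 CPM in the control and 3205 and 3390 in the CrT-KO libraries, all above the range of MSN-like nuclei, the next in order, at 2238, 2322, 2352 and 2671. Against the mean of PV-like, VIP-like and LAMP5-like nuclei the log2 difference of Gria1 was 1.28 (SE 0.06), and that of Gria3 was 1.11 (SE 0.06). In this comparison 5 of 9 tested members were higher and 1 lower in SST-like nuclei, while 28.6% of 9488 genes differed (16% higher and 12.6% lower). Gria2 did not pass, with a log2 difference of -0.06 and a 95% interval from -0.17 to 0.04.

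PV-like nuclei, the fast-spiking interneurons marked by parvalbumin, had the highest mean of Gria4. Gria4 measured 2716 and 2858 CPM in control and 2625 and 2708 in CrT-KO PV-like nuclei. These values overlapped with those of the Slc17a6-like nuclei, at 2617, 2464, 2487 and 2751, and lay above all values of the next population, the L5/6 NP-like nuclei. Against the other 3 interneuron subclasses PV-like nuclei were higher by 0.81 (SE 0.05) for Gria4, by 0.79 (SE 0.06) for Gria3 and by 0.37 (SE 0.06) for Gria1 on the log2 scale. They were lower in 6 of the 9 tested members and higher in these 3, while 45.8% of 9488 genes differed (22.6% higher and 23.2% lower).

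VIP-like and LAMP5-like nuclei had less of these AMPA subunits. VIP-like interneurons, marked by vasoactive intestinal peptide, held 299 and 296 CPM of Gria3 in control and 365 and 410 in CrT-KO libraries, below every other interneuron subclass in every library. Against the other 3 subclasses, Gria3 was lower by -1.51 (SE 0.07) and Gria4 by -0.72 (SE 0.05), whereas Gria2 was higher by 0.46 (SE 0.05) on the log2 scale. In VIP-like nuclei 3 of 9 tested members were higher and 4 lower (29.9% of 9488 genes differed, 15.9% higher and 14% lower). LAMP5-like nuclei, a group that includes neurogliaform cells, held 855, 899, 955 and 852 of Gria1, with a log2 difference of -1.36 (SE 0.07). There 2 of 9 tested members were higher and 5 lower (29.9% of 9488 genes differed, 15.5% higher and 14.3% lower).

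MSN-like nuclei, here only those of the Drd2-rich subclusters, combined high Gria1 with low Gria4. Gria4 measured 629, 657, 564 and 593 CPM there, below all 4 values of each cortical interneuron subclass. The log2 difference from the mean of the 4 interneuron subclasses was -1.36 (SE 0.05) for Gria4, 0.74 (SE 0.05) for Gria2, 0.70 (SE 0.05) for Gria3 and 0.54 (SE 0.06) for Gria1. In total 5 of 9 tested members were higher and 3 lower in MSN-like nuclei, while 59.9% of 9488 genes differed (29.6% higher and 30.2% lower).

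**Figure D2:**
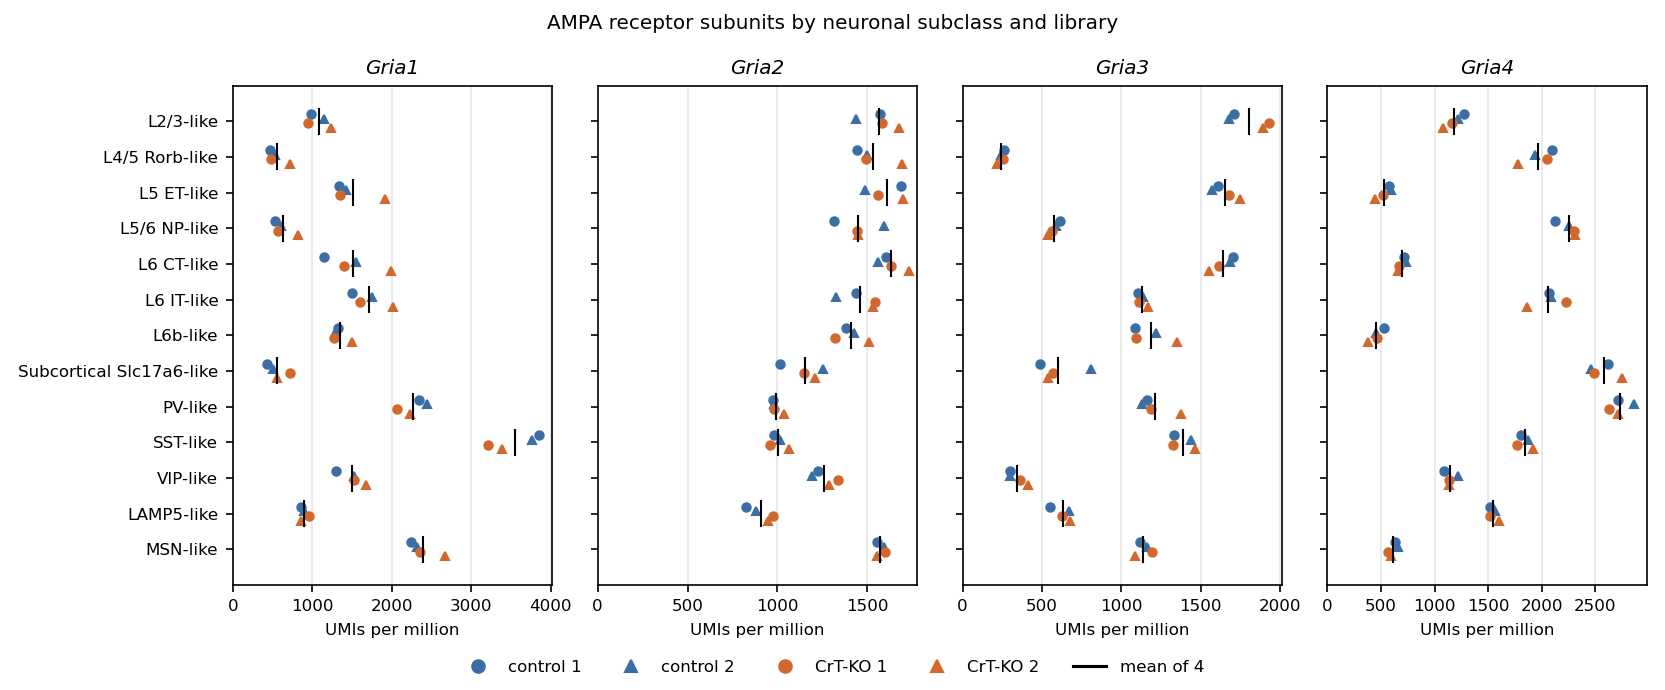
CPM of Gria1 to Gria4 (1 panel each) in every neuronal subclass, with 1 point per library (blue control, orange CrT-KO, circle replicate 1, triangle replicate 2) and a black bar at the mean of 4. Gria3 falls to a mean of 243 in L4/5 Rorb-like nuclei and Gria4 reaches 2727 in PV-like nuclei, while the Gria2 means stay between 906 and 1633.

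In excitatory subclasses Gria3 and Gria4 took opposite positions in several layers. L4/5 Rorb-like nuclei, with markers of thalamus-receiving layer 4, held 258, 240, 254 and 218 CPM of Gria3 and 2093, 1936, 2046 and 1781 of Gria4. Against the mean of the other excitatory subclasses Gria3 was lower by -2.18 (SE 0.07), Gria1 by -1.0 (SE 0.07) and Gria4 higher by 0.82 (SE 0.05). L5/6 NP-like nuclei, the near-projecting type, showed the same directions, with log2 differences of -0.91 for Gria3 (SE 0.07), -0.91 for Gria1 (SE 0.07) and 0.90 for Gria4 (SE 0.05). The Slc17a6-like nuclei did so too, at -0.72 (SE 0.07), -0.92 (SE 0.08) and 1.28 (SE 0.05).

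The reverse held in the deep projection neurons. In L5 ET-like nuclei, the extratelencephalic type, Gria3 was higher by 1.00 (SE 0.05), Gria1 by 0.69 (SE 0.06) and Gria4 lower by -1.32 (SE 0.06). L6 CT-like nuclei, which project to the thalamus, had log2 differences of 0.93 (SE 0.05), 0.63 (SE 0.06) and -0.93 (SE 0.05) for the same genes, and L6b-like nuclei had 0.47 (SE 0.06), 0.53 (SE 0.06) and -1.56 (SE 0.06). Gria4 measured 527, 449, 463 and 381 CPM in L6b-like nuclei, which overlapped with 580, 590, 522 and 440 in L5 ET-like nuclei. L6 IT-like nuclei stood apart from this opposition, with Gria1 higher by 0.84 (SE 0.06), Gria4 by 0.84 (SE 0.05) and Gria3 by 0.30 (SE 0.06). L2/3-like nuclei had the highest mean of Gria3, at 1712 and 1680 in control and 1926 and 1890 in CrT-KO libraries, a log2 difference of 1.12 (SE 0.05), though these values overlapped with those of L5 ET-like and L6 CT-like nuclei.

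Differences of this kind were frequent among all genes, so their number says little about the members. Counting both directions, the members that differed numbered 7 of 9 tested in L2/3-like nuclei (46.1% of 11022 genes differed), 6 in L4/5 Rorb-like (48.8%), 9 in L5 ET-like (38.9%), 7 in L5/6 NP-like (35.2%), 7 in L6 CT-like (41.2%), 5 in L6 IT-like (31.9%), 6 in L6b-like (31.7%) and 7 in Slc17a6-like nuclei (25.1%). Over all 15 comparisons of levels, 108 differences of members passed the threshold, and 87 of them passed with the same sign under each of the 7 alternatives tried.

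Grin1, whose product is part of every NMDA receptor, was the most even of the members across neurons. Its subclass means ranged over 1.55-fold, from 353 ± 26.6 CPM in PV-like to 546 ± 52.9 in MSN-like nuclei. MSN-like nuclei were higher than the interneuron subclasses by a log2 difference of 0.71 (SE 0.05). L5/6 NP-like nuclei were lower than the other excitatory subclasses by -0.38 (SE 0.06). Within most populations 1 library was the highest, since CrT-KO 1 held the largest Grin1 value in 14 of 18 populations.

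Grin2a and Grin2b encode the GluN2 subunits most used by cortical neurons, and Grin2a varied more. The subclass means ranged over 3.89-fold for Grin2a and 1.68-fold for Grin2b. LAMP5-like nuclei held 3300 and 3063 CPM of Grin2a in control and 3138 and 3975 in CrT-KO libraries, whereas VIP-like nuclei held 946, 993, 710 and 815. The 4 values of the first subclass thus lay above, and those of the second below, all values of the other interneuron subclasses. The log2 differences from the other 3 interneuron subclasses were 1.36 (SE 0.06) in LAMP5-like and -1.18 (SE 0.08) in VIP-like nuclei. Grin2b was higher by 0.35 (SE 0.05) in VIP-like nuclei.

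Among excitatory subclasses, L6b-like nuclei had the least Grin2a. They held 1389, 1632, 1349 and 1660 CPM, below every value of the other 7 excitatory subclasses, with a log2 difference of -0.68 (SE 0.05). L2/3-like nuclei were higher by 0.32 (SE 0.05) for Grin2a and by 0.33 (SE 0.04) for Grin2b. Grin2b was higher in the Slc17a6-like nuclei by 0.41 (SE 0.04) and lower in L5/6 NP-like nuclei by -0.59 (SE 0.04) and in L4/5 Rorb-like nuclei by -0.29 (SE 0.04).

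Grin2d was an interneuron gene at low level. VIP-like nuclei held 68.3, 55.3, 69.4 and 46.3 CPM of it, and LAMP5-like nuclei 37.3, 44.2, 58.5 and 64.2, ranges that overlapped. Against the other interneuron subclasses VIP-like nuclei were higher by 0.74 (SE 0.14) and SST-like nuclei lower by -0.70 (SE 0.12). MSN-like nuclei held 3.48, 4.6, 2.9 and 2.71, a log2 difference of -3.45 (SE 0.22), which is below every interneuron value and near the excitatory subclasses.

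Grin3a had the widest range of all members across neurons. Its subclass means ran from 8.31 ± 1.29 CPM in L4/5 Rorb-like to 1229 ± 66.3 in SST-like nuclei, a 148-fold range. The SST-like values were 1323, 1183, 1227 and 1182, above every other population in every library, and the log2 difference from the other interneuron subclasses was 3.48 (SE 0.08). PV-like nuclei held 39.4, 40.3, 25.6 and 30.4 (log2 difference -3.48, SE 0.12) and MSN-like nuclei 17.4, 11.5, 13.3 and 15.3 (-3.68, SE 0.16). SST-like and PV-like nuclei, the 2 large interneuron subclasses that share an origin in the medial ganglionic eminence, thus lay at opposite ends of the interneuron range.

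Excitatory subclasses also differed in Grin3a, though at lower levels. L5/6 NP-like nuclei held 171, 149, 161 and 141 CPM, higher than the other excitatory subclasses by 2.18 (SE 0.15). L6 IT-like nuclei were higher by 1.41 (SE 0.11), the Slc17a6-like nuclei by 1.21 (SE 0.21) and L5 ET-like nuclei by 0.89 (SE 0.13). L4/5 Rorb-like, L6 CT-like and L2/3-like nuclei were lower by -2.50 (SE 0.19), -2.32 (SE 0.16) and -1.09 (SE 0.13).

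**Figure D3:**
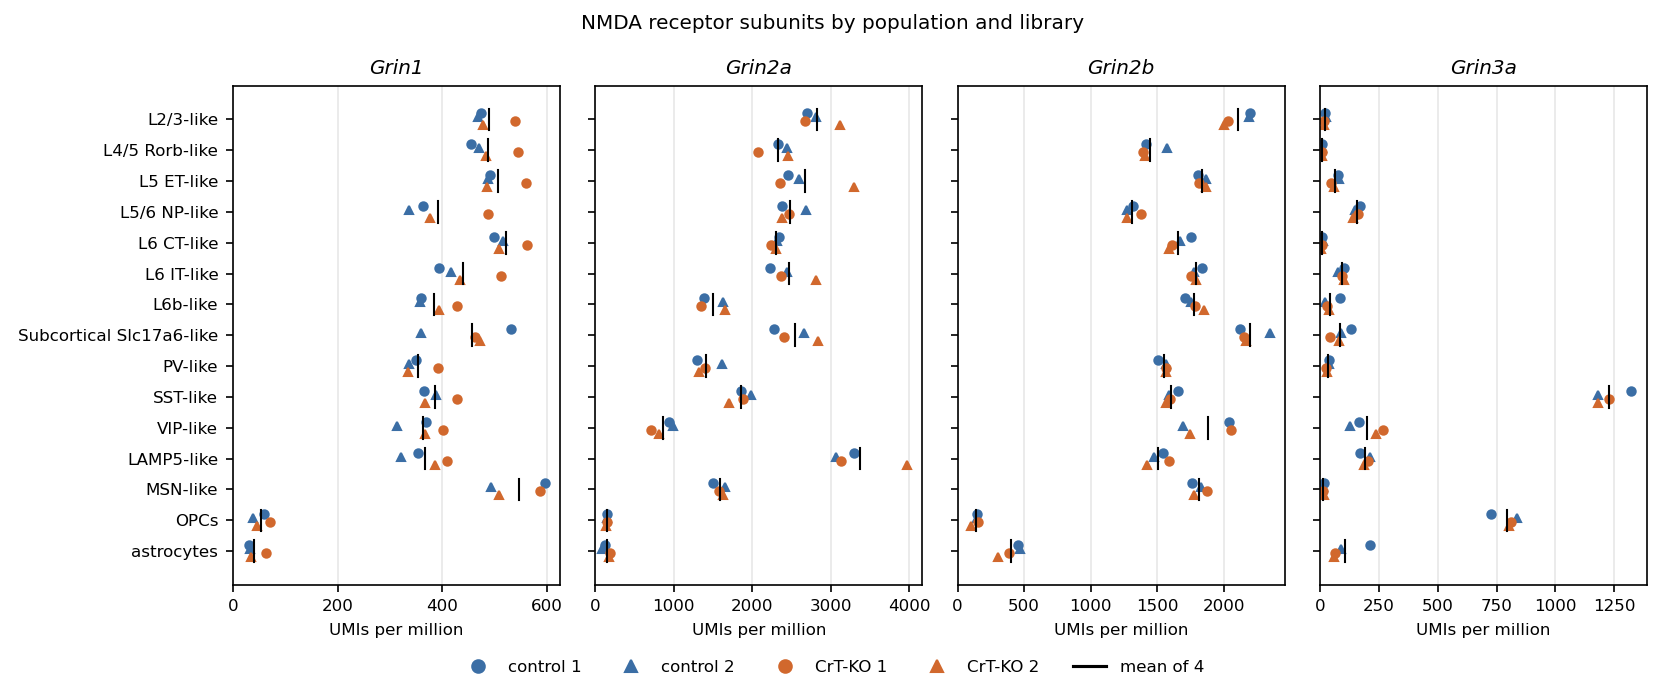
CPM of Grin1, Grin2a, Grin2b and Grin3a (1 panel each) in every neuronal subclass, OPCs and astrocytes, drawn as for the AMPA subunits. Grin3a reaches a mean of 1229 in SST-like nuclei and 794 in OPCs and lies at or under 199 in every other population shown.

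Outside neurons, some members stood well above the neuronal RNA that reached these nuclei. Free RNA from broken neurons enters droplets of every kind, so the level of neuronal genes that glia should lack was used as a reference, each as a percent of its level in all neurons. These reference genes, for example Snap25 and Slc17a7, had a median of 19.1% in oligodendrocytes (range 6.75% to 31.9%), 11.0% in OPCs (3.68% to 28.9%), 26.0% in microglia (8.36% to 43.8%), 10.3% in astrocytes (5.51% to 21.3%) and 46.9% in endothelial cells and pericytes (37.7% to 105%). A member whose mean over the 4 libraries lies within that range is read as background. In endothelial cells and pericytes no member exceeded the range.

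OPCs, the precursors of oligodendrocytes that receive synapses from neurons, carried 5 members above the reference. Grin3a reached 725 and 839 CPM in control and 811 and 802 in CrT-KO OPCs, all above the values of every population except SST-like nuclei. Gria2 measured 1326, 1228, 1351 and 1608, and Gria4 1088, 1213, 1156 and 1142. As a percent of the neuronal level these came to 771% for Grin3a, 96.8% for Gria2, 85.1% for Gria4, 62.9% for Gria3 and, from 24 UMIs, 127% for Grin2d. Gria1, Grin1, Grin2a and Grin2b lay within the reference range in OPCs, between 6.68% and 11.7%.

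Mature oligodendrocytes, as named here, held less of these genes than their precursors. Clusters of 683 and 164 nuclei that scored highest as oligodendrocytes kept no name and were left out of this comparison. OPCs were higher by log2 differences of 5.28 (SE 0.13) for Grin3a, 1.67 (SE 0.09) for Gria3, 1.37 (SE 0.08) for Gria2 and 0.86 (SE 0.08) for Gria4, and 5 of 8 tested members were higher and 2 lower while 56.2% of 7552 genes differed (28.9% higher and 27.3% lower). Grin2a and Grin2b were lower in OPCs by -0.54 (SE 0.12) and -0.76 (SE 0.12). With doublets kept these 2 turned to 1.17 for Grin2a and 0.82 for Grin2b, with 48 nuclei marked as doublets among the 723 OPCs of that setting, and both genes were within the background range in OPCs. Above the reference in oligodendrocytes were Gria4 at 51.0% of the neuronal level and Gria2 at 40.4%, with Gria4 at 723, 641, 733 and 659 CPM. Grin2d at 32.3% (13.9% to 52.4% over the libraries) lay just past the highest reference gene, and Grin2c had 2 UMIs.

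Astrocytes expressed Grin2c, a subunit known from cerebellar granule cells and astrocytes. Its values were 332, 321, 352 and 295 CPM from 390 UMIs over all libraries, with little spread between animals. In PV-like nuclei, the next in order, the mean was 1.22 ± 0.546. No UMI of Grin2c was found in OPCs, which at their depth allows a level of up to 1.69 CPM, in VIP-like nuclei (up to 1.14), in MSN-like nuclei (up to 0.499), in LAMP5-like nuclei (up to 0.879), in L5/6 NP-like nuclei (up to 0.987), in L2/3-like nuclei (up to 0.111) or in endothelial cells and pericytes (up to 7.34). These limits come from 3 counts over the 4 libraries and cover counting error only. Per kb of gene body the astrocyte level of Grin2c was 17.9 ± 1.30, next to 12.7 ± 1.34 for Gria2 in the same nuclei.

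Astrocytes also held Gria2 at a neuronal level, with 1310, 1580, 1563 and 1698 CPM, or 108% of the level in all neurons. Gria1 at 28.1%, Grin2b at 23.0% and Grin3a at 100% of the neuronal level also exceeded the highest reference gene there (21.3%) in the mean. Over the libraries Gria1 ran from 18.8% to 39.7% and Grin2b from 17.7% to 26.7%, so both lay in part within the range. Grin3a rested on 105 UMIs and spread widely, with 213 in control 1 and 89.9, 63.1 and 57.8 in the others. Gria4, at 126, 157, 144 and 135, and Grin1, at 31.6, 32.3, 63.1 and 35.3, were within the background range. In microglia only the mean of Gria2 exceeded the reference range, at 50.6% of the neuronal level, apart from Grin2c, which had 1 UMI there. Over the libraries Gria2 ran from 39.7% to 65.0%, against a highest reference gene of 43.8%.

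**Figure D4:**
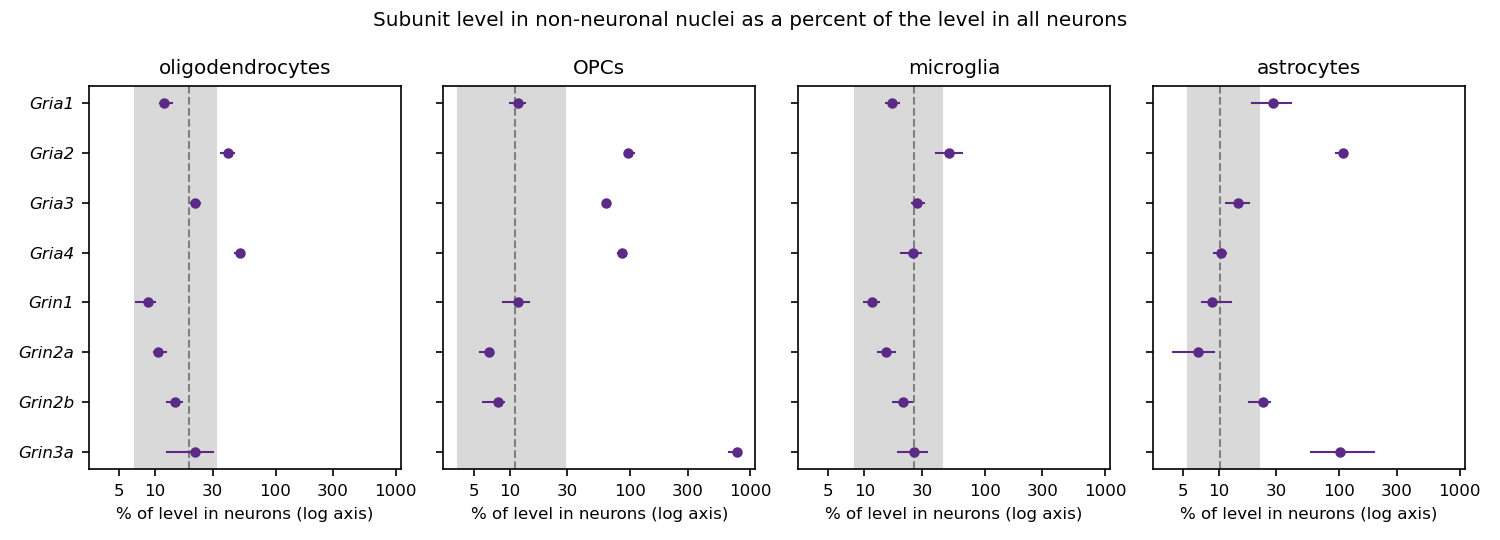
Level of 8 members in 4 non-neuronal populations as a percent of the level in all neurons (log axis), with the point at the mean and the line from the lowest to the highest of 4 libraries. The grey band runs from the lowest to the highest neuronal reference gene and the dashed line marks its median, so Grin3a in OPCs at 771% and Gria2 in astrocytes at 108% lie to the right of the band.

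Ratios of subunits within a population are free of the scaling between libraries, and they differed between neurons. The share of Gria2 among the UMIs of the 4 AMPA subunits was 28.4% ± 0.648 (SD, n = 4) in excitatory and 20.9% ± 0.880 in inhibitory neurons, with every excitatory above every inhibitory value. It was lowest in SST-like nuclei at 12.3%, 12.6%, 13.2% and 13.6% and in PV-like nuclei at 13.5%, 13.2%, 14.3% and 14.1%. Astrocytes were at the other end with 69.2%, 66.8%, 65.2% and 72.5%. These are shares of UMIs from genes of unequal length, so they compare populations and give no subunit stoichiometry.

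The ratio of Grin2a to Grin2b had another order of populations, with LAMP5-like nuclei at the top. On the log2 scale it was 1.10, 1.06, 0.98 and 1.48 in LAMP5-like nuclei and -1.11, -0.77, -1.53 and -1.10 in VIP-like nuclei. L6b-like nuclei were the only excitatory subclass with a mean below 0, at -0.24 ± 0.14. The ratio of Gria1 to Gria2 was highest in SST-like nuclei, with a mean of 1.82 ± 0.14, and among neurons lowest in L4/5 Rorb-like nuclei, at -1.50 ± 0.18.

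The study asked what changes when the creatine transporter is lost. With counts summed per library and the populations named here, no member passed in any population. The study itself used a rank-sum test over nuclei in its own populations, and its gene lists were not compared here. Of 200 pairs of member and population, 172 had enough counts to be tested, and 0 were called at an adjusted p under 0.1 by the edgeR quasi-likelihood test with Benjamini-Hochberg adjustment or by DESeq2. At an unadjusted p under 0.05 stood 29 pairs, or 16.9%, against 3.00% to 9.70% of all genes in the single populations. The pairs are not independent, since neuron classes and their subclasses share nuclei and all populations share the 4 animals. The lowest adjusted p was 0.139. Over all genes, 0.193% of 13960 were called in excitatory and 0.0623% of 12845 in inhibitory neurons, so few genes of any kind passed with 2 libraries per genotype. The share was at most 1.57% in any population.

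In excitatory neurons the median log2 fold change (CrT-KO minus control) of the 9 tested members was 0.10, against -0.01 over all genes. Grin1 measured 453 and 449 CPM in control and 516 and 460 in CrT-KO libraries, which did not overlap, with a log2 fold change of 0.16 (95% interval 0.01 to 0.31, edgeR adjusted p = 0.52). Gria2 did not overlap either, at 1447 and 1404 against 1475 and 1565, with 0.14 (95% interval -0.000566 to 0.28). Among all tested genes in excitatory neurons 41% did not overlap, 11.4% with higher and 29.6% with lower CrT-KO values, and of the members 2 were higher and 2, Grin2b and Grin3a, lower.

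Gria1 in excitatory neurons changed its call with 1 library. It stood at 1048 and 1216 CPM in control and 1115 and 1420 in CrT-KO libraries, so the groups overlapped, with a log2 fold change of 0.21 (95% interval -0.03 to 0.45, edgeR adjusted p = 0.614). Without CrT-KO 1 the fold change of Gria1 was 0.39 (adjusted p = 0.00771), a call that came from control against CrT-KO 2 alone. CrT-KO 2 held the highest Gria1 value in 7 of 8 excitatory subclasses. The fitted fold change of Gria1 was positive in all 8 of them, and those subclasses come from the same 4 animals. Without CrT-KO 1 it passed in L4/5 Rorb-like (0.57), L5 ET-like (0.53), L6 CT-like (0.60) and L6 IT-like nuclei (0.36). Without control 2 it passed in L4/5 Rorb-like (0.41), L6 CT-like (0.60) and Slc17a6-like nuclei (0.64). With all libraries but no filter on low counts it passed in L4/5 Rorb-like nuclei (0.31, edgeR adjusted p = 0.0655).

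The other excitatory intervals bounded the difference within narrow limits. They ran from -0.05 to 0.21 for Gria3, from -0.15 to 0.13 for Gria4, from -0.08 to 0.28 for Grin2a and from -0.13 to 0.14 for Grin2b. Grin2b was lower in both CrT-KO libraries in CPM (1826 and 1809 against 1766 and 1768), while its fitted change of 0.01 had the other sign, because the fit scales the libraries by TMM factors. Grin3a, at 43.9 and 41.0 against 37.7 and 37.4, had -0.13 (95% interval -0.30 to 0.04). Grin2d, with a wider interval from -0.20 to 0.50, was limited by its 850 UMIs, and Grin2c, with 36 UMIs, was not tested.

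**Figure D5:**
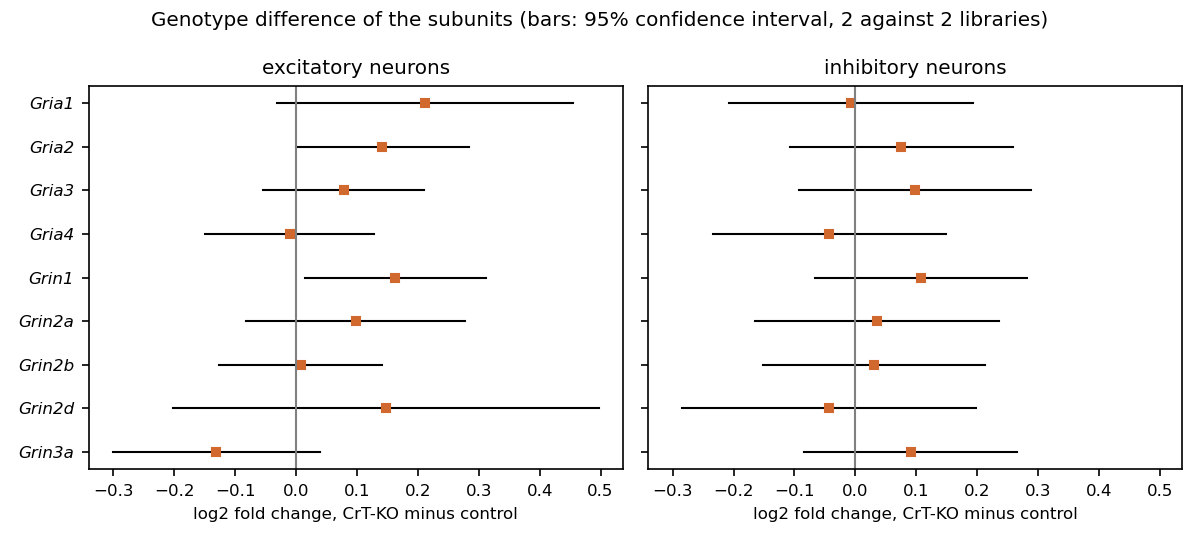
Log2 fold change (CrT-KO minus control) of 9 members in excitatory and inhibitory neurons, with the point at the edgeR estimate and the bar spanning its 95% interval from 2 against 2 libraries. Every inhibitory interval and 8 of the excitatory ones include 0, and that of Grin1 in excitatory neurons runs from 0.01 to 0.31.

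In inhibitory neurons the 10 members had a median fold change of 0.03 against 0.00 over all genes, and no member had an unadjusted p under 0.05. Gria2, at 1217 and 1253 against 1292 and 1274 CPM, and Gria4, at 1580 and 1627 against 1488 and 1579, did not overlap between genotypes, as 32.3% of all genes did not (13.6% higher and 18.7% lower). Their log2 fold changes were 0.08 (95% interval -0.11 to 0.26) and -0.04 (-0.23 to 0.15). The difference of the genotype effect between inhibitory and excitatory neurons was tested as an interaction, which called 0 of 10 members and 0.0776% of 14178 genes. For Gria1 this difference was -0.22 (unadjusted p = 0.0114, edgeR adjusted p = 0.572) and for Grin3a 0.21 (unadjusted p = 0.00699, adjusted p = 0.537). Without control 2 that of Gria1 was -0.32 (adjusted p = 0.0966). DESeq2 was not run for the interaction.

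The lowest adjusted p of any pair belonged to Grin3a in VIP-like nuclei. Its level was 165 and 126 CPM in control and 268 and 237 in CrT-KO libraries, which did not overlap (as for 33.8% of genes there, 18% higher and 15.9% lower), with a log2 fold change of 0.78 (95% interval 0.43 to 1.13, edgeR adjusted p = 0.139). The VIP-like value depended on which nuclei were counted. With doublets kept, 460 nuclei took the VIP-like name in place of 536, with 457 shared, and the fold change of Grin3a was -0.11. Over the 10 alternatives it ranged from -0.11 to 0.98 and passed the threshold in 4, with adjusted p from 0.00396 to 1.00.

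Elsewhere the sign of Grin3a varied. The fitted change was positive in 1 of 8 excitatory subclasses and negative in the others, and it was positive in 3 of 5 inhibitory subclasses, with 0.02 in LAMP5-like, 0.01 in MSN-like and -0.03 in SST-like nuclei. In L5 ET-like nuclei Grin3a measured 75.6 and 79.6 in control and 45.8 and 61.1 in CrT-KO libraries (log2 fold change -0.50, 95% interval -0.82 to -0.18, edgeR adjusted p = 0.483), and in PV-like nuclei 39.4 and 40.3 against 25.6 and 30.4 (-0.52, 95% interval -0.92 to -0.11, edgeR adjusted p = 0.778). Neither passed the threshold, and genotypes did not overlap for 36.2% of genes in L5 ET-like (23% lower) and 34.4% in PV-like nuclei (18% lower). Without CrT-KO 2 the L5 ET-like value of Grin3a was -0.73 (adjusted p = 0.0511).

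Of the 29 pairs at an unadjusted p under 0.05 (edgeR), 6 each were of Gria1 and Grin3a and 4 each of Gria2, Grin1 and Grin2a. Gria3 had 2, and Gria4, Grin2b and Grin2d had 1 each. Only some of them are given here as values. In L2/3-like nuclei Gria3 stood at 1712 and 1680 against 1926 and 1890 CPM (log2 fold change 0.22, 95% interval 0.07 to 0.38, edgeR adjusted p = 0.228). In SST-like nuclei Gria1 stood at 3850 and 3760 against 3205 and 3390 (-0.18, 95% interval -0.35 to -0.02, adjusted p = 0.830). In microglia Gria2, in part within the background range, stood at 552 and 669 against 930 and 730 (0.44, 95% interval 0.16 to 0.72, edgeR adjusted p = 0.748). In none of these 3 did the genotypes overlap, as for 40.4%, 34% and 34.9% of genes in the respective populations. In the direction of each member the share was 12.8% for Gria3 (higher), 19.9% for Gria1 (lower) and 17.5% for Gria2 (higher). The fold change of Gria3 stayed between 0.21 and 0.23 over the 10 alternatives. Without CrT-KO 2 the microglial Gria2 value was 0.59 (adjusted p = 0.0572). In astrocytes Grin3a was -1.08 (95% interval -1.87 to -0.29, adjusted p = 0.997) and without control 2 -1.79 (adjusted p = 0.00736), where 1 control library of 213 CPM remained.

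The subunit ratios gave no difference between genotypes that the design could call. With 4 libraries the two-sided exact permutation test has 6 assignments and cannot go below p = 0.333, and all 60 tests had a Benjamini-Hochberg adjusted p of 0.851 or more. In excitatory neurons the log2 ratio of Grin2a to Grin2b differed by 0.09 and that of Gria1 to Gria2 by 0.06, and the share of Gria2 by 0.70 percentage points, all with overlapping groups. In inhibitory neurons the same differences were 0.01, -0.09 and 0.88 percentage points. Genotypes did not overlap in the Gria2 share in 5 of 20 populations with a higher and 1 with a lower CrT-KO value. For the log2 ratio of Gria1 to Gria2 these counts were 3 and 5, and for that of Grin2a to Grin2b 3 and 0. Of the 6 assignments of the libraries, a share of 0.333 sets the groups apart whatever the genotype. The 20 populations share nuclei and the same 4 animals, so these counts and their directions show no genotype difference.

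Other genes of the glutamate receptor pathway, 56 in 5 groups, gave the same picture in the neuron classes as a whole. Of these genes 54 were tested in each class and 0 were called by edgeR or DESeq2, with 3 at an unadjusted p under 0.05 in excitatory and 2 in inhibitory neurons, against 9.07% and 5.15% of all genes. Their median log2 fold changes were 0.02 and 0.03. The 12 auxiliary AMPA receptor subunits, which guide receptors to the synapse, divided into 6 positive and 6 negative in excitatory neurons. The 15 postsynaptic scaffold genes divided into 9 positive and 6 negative in both classes. Of 9 tested genes of kainate and delta receptors and the remaining NMDA receptor subunit, 5 were positive in excitatory and 7 in inhibitory neurons. Of 8 tested genes of receptor binding and trafficking, 4 and 2 were positive, and of 10 kinase and editing genes 8 and 7.

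The largest changes without overlap in each class are given as values. Grik5, a kainate receptor subunit, stood at 108 and 115 against 142 and 121 CPM in excitatory neurons (log2 fold change 0.28, edgeR adjusted p = 0.303), and without CrT-KO 2 its value was 0.38 (adjusted p = 0.0158). Arc, an immediate early gene that drives AMPA receptor internalization, stood at 10.1 and 12.3 against 8.38 and 5.87 (-0.60, adjusted p = 0.298). Without CrT-KO 1 the value of Arc was -0.87 (adjusted p = 0.000554). In inhibitory neurons Homer3 had 0.51 (SE 0.44) at 0.96 and 0.78 against 1.12 and 1.36 CPM, and Nptx2, a secreted pentraxin that gathers AMPA receptors, had -0.63 (adjusted p = 0.950). Homer3 overlaps another gene on the opposite strand, so its count is uncertain.

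Calls among these genes appeared in 2 excitatory subclasses. In L2/3-like nuclei, where 1.57% of 11243 genes were called, Grik5 rose by 0.38 (94.0 and 99.7 against 130 and 114 CPM, edgeR adjusted p = 0.0697) and Neto2, an auxiliary subunit of kainate receptors, fell by 0.52 on the log2 scale (106 and 90.7 against 66.2 and 66.1, adjusted p = 0.0103). In L4/5 Rorb-like nuclei, where 1.15% of 9901 genes were called, the auxiliary AMPA receptor subunits Gsg1l and Shisa6 fell and the kainate receptor subunits Grik1 and Grik3 rose. Gsg1l stood at 58.0 and 53.6 against 25.8 and 30.7 (log2 fold change -0.94, edgeR adjusted p = 0.00446). Shisa6 stood at 252 and 295 against 175 and 206 (-0.48, adjusted p = 0.0453).

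Grik1 and Grik3 had smaller changes in the same nuclei. Grik1 stood at 439 and 490 against 615 and 567 CPM (0.39, edgeR adjusted p = 0.0520) and Grik3 at 43.4 and 52.5 against 65.1 and 73.6 (0.57, adjusted p = 0.0674). In all 6 cases both CrT-KO libraries lay on one side of both controls. The genes were named for their calls in these same libraries, so this adds no support. Over all genes the genotypes did not overlap for 40.4% in L2/3-like and 39% in L4/5 Rorb-like nuclei. The L4/5 Rorb-like group went from 1985 to 920 nuclei with doublets kept, 816 of them shared, and there Gsg1l had -0.58, Shisa6 -0.38 and Grik1 0.10, none past the threshold, while Grik3 had 0.68 (adjusted p = 0.00758).

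Each of these genes but Gsg1l lost its call when some single library was left out, although no sign turned. The omissions listed here are those that ended a call, and every other omission kept it. Without control 1 the L2/3-like values were -0.42 for Neto2 (edgeR adjusted p = 0.201) and 0.33 for Grik5 (0.425), and the L4/5 Rorb-like values were 0.31 for Grik1 (0.415) and 0.44 for Grik3 (0.412). Without control 2, Shisa6 had -0.35 (adjusted p = 0.255) and Grik5 0.45 (0.183). Without CrT-KO 1, Shisa6 had -0.35 (adjusted p = 0.220), Grik1 0.35 (0.117) and Grik5 0.30 (0.444), and without CrT-KO 2 Grik3 had 0.47 (0.242). Gsg1l passed without each library in turn, while DESeq2 gave no adjusted p for Gsg1l or Grik3.

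Genes whose mean level followed a member most closely over the 18 populations were found by Pearson correlation of log2(CPM + 1) among 6233 genes, as a description only. The points share their libraries and differ in depth. Grin1 ran with Unc13a, which primes synaptic vesicles (r = 0.99), and Ksr2 (r = 0.97), and Grin2a with the vesicle calcium sensor Syt1 (r = 0.97) and Morc2b (r = 0.96). Grin2b ran with Pacsin1 and Unc13a (both r = 0.95). Grin2c ran with Pdzph1 and Ccdc190 (both r = 0.98), Grin2d with Vwc2 (r = 0.91) and Btbd11 (r = 0.90), and Grin3a with Elfn1 (r = 0.84) and Ugdh (r = 0.78). Btbd11 and Elfn1 were among the markers used to name PV-like and SST-like nuclei.

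The AMPA subunits had less close companions. Gria1 ran with Cep126 (r = 0.87) and Gm1043 (r = 0.86), Gria2 with Adgrl1 and the adhesion molecule Nrcam (both r = 0.87), Gria3 with the splicing regulator Rbfox1 (r = 0.88) and Iqgap2 (r = 0.83), and Gria4 with Cadm3 (r = 0.86) and Usp13 (r = 0.82).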

How the data were processed

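Nuclei of 4 animals were sorted and captured on 10x Genomics droplets by the authors, who counted UMIs with Cell Ranger 3.1.0 against GRCm38 with whole gene bodies taken as exons. The deposited values are raw counts of UMIs per gene and nucleus, without scaling. Strand use was not given in the sources used here, and the authors' assignment of nuclei to cell types was not used. The submitters' processing notes also name Seurat 3.1.4. Coordinates came from GENCODE vM21, which held 21893 of 21933 features by identifier.

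Doublets were marked per library with Scrublet (2.91% to 4.17%, 1236 of 35694 nuclei removed). The rest were clustered in scanpy 1.11.5 (2998 variable genes after leaving out the members, 30 principal components, 20 neighbours, Leiden resolution 1.0) and clusters were named from marker lists, with thresholds set after the matrices were seen. 33038 nuclei were named. The names are thus not the authors' own, and population sizes can differ from theirs for that reason.

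Counts were summed per library and population and tested with edgeR 4.0.16 in R 4.3.3 (quasi-likelihood, TMM, filterByExpr with at least 10 counts, Benjamini-Hochberg over all genes of a fit, threshold 0.1). Level comparisons had the library as a block. In place of the study's rank test over nuclei, animals were the replicates. Ratios were compared by exact permutation. DESeq2 1.42.0 and other alternatives were tried. The fits were tested on simulated data. The 10 members were named in every population, Slc6a8 checked the genotype, 2 genes of like pattern were taken per member among genes with at least 50 CPM, and of the pathway list every called gene and otherwise the largest rise and fall without overlap were named. Members and lists were chosen with earlier results of these data known. No batch is given in the labels.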

Additional observations from a re-analysis of the deposited data

Results flagged for a closer look

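For 6 members, both CrT-KO libraries lay above both controls in some neuronal subclasses and below them in others. Over all genes, 32.5% to 40.4% did not overlap between genotypes in the single neuronal subclasses. The difference between subclasses was not tested. The values below are the extreme log2 fold changes (CrT-KO minus control) on each side, none of which passed the threshold. Gria1 had 0.48 in Slc17a6-like and -0.18 in SST-like nuclei. Gria3 had 0.36 in VIP-like and -0.11 in L5/6 NP-like nuclei. Gria4 had 0.0869 in L5/6 NP-like and -0.24 in L5 ET-like nuclei. Grin2b had 0.0852 in L6b-like and -0.0679 in L6 CT-like nuclei. Grin2d had 0.55 in LAMP5-like and -0.25 in PV-like nuclei. Grin3a had 0.78 in VIP-like and -0.86 in Slc17a6-like nuclei, where it stood at 130 and 88.9 against 42.7 and 79.5 CPM.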

How the results depend on the processing

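With 2 libraries per genotype, depth limits Grin2c and Grin2d and the number of animals limits every genotype comparison. Results were recomputed under 10 alternatives for genotype and 7 for levels. Calls were counted as pairs of gene and population, so 1 gene can count more than once. The 0 member calls over all 20 populations became 2 without a filter on low counts and 6 with a replicate block. The 6 pathway genes became 3 with DESeq2, 3 at a threshold of 0.05, 11 without a filter, 17 with the replicate block and between 3 and 12 when 1 library was left out. In excitatory neurons the replicate block called 1 member (Gria1, 0.21, adjusted p = 0.0405) and 2 pathway genes, and leaving out 1 library called between 0 and 1 of each. Over the subclasses the replicate block also called Gria1 in L4/5 Rorb-like (0.29, adjusted p = 0.0210) and L6 CT-like (0.35, 0.00877), Gria3 in L2/3-like (0.22, 0.0492), and Grin3a in L5 ET-like (-0.51, 0.0683) and VIP-like nuclei (0.78, 0.00396). The labels do not say whether libraries with the same replicate number were handled together. Deviations of same-numbered libraries correlated at 0.259 in excitatory neurons, 0.168 in inhibitory neurons and 0.123 in oligodendrocytes. Whether they form pairs was not tested. In the interaction between neuron classes, between 0 and 1 member was called when 1 library was left out. Counts of called level differences moved by less than 1.5 times under every alternative.

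Signs were followed for the members in both neuron classes, for some other pairs and for the called level differences. Outside these, the log2 fold change of Grik2 in Slc17a6-like nuclei was -0.61 without control 1 and 0.59 without control 2. Among those followed, signs turned in these cases. With doublets kept, the Gria1 log2 fold change, CrT-KO minus control, inhibitory neurons, was 0.00201, Grin3a in VIP-like nuclei -0.11 (from 0.78), and Grin2a and Grin2b in OPCs against oligodendrocytes 1.17 and 0.82 (from -0.54 and -0.76). With 1 library left out, fold changes in excitatory neurons ranged from -0.0521 to 0.0328 for Gria4, from -0.0382 to 0.226 for Grin2a and from -0.00886 to 0.0267 for Grin2b, and in inhibitory neurons from -0.12 to 0.0959 for Gria1, from -0.000745 to 0.19 for Gria3, from -0.116 to 0.0249 for Gria4, from -0.0638 to 0.137 for Grin2a and from -1.50 to 0.17 for Grin2c. The cause was not tested.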
